A study of Rattus norvegicus with 50 samples.

Results

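The hippocampus and the peripheral blood mononuclear cells (PBMC) of normal-weight (NW) rats were compared gene by gene, to give the genes and gene families that separate brain tissue from blood and those with an equal level in both. The members were the 16 arrays titled for hippocampus or PBMC of the control group, 8 of each tissue and numbered 1 to 8, out of 50 arrays in the whole series. The NW rats were male Wistar rats that received the vehicle (Captisol) by mouth during lactation and then ate a 10% fat diet (D12450B) after weaning (without restriction by the labels, pair-fed by the study's methods), and they were studied at 3.5 months of age. The hippocampus was taken after decapitation in the fed state, and PBMC were separated on a density gradient from blood of the saphenous vein. The same pairs of tissues were also measured in MONW rats (metabolically obese, normal-weight; vehicle, then a 60% fat diet with calories held to those of the NW rats; 8 pairs) and in MONW-Lep rats (oral leptin during lactation, then the 60% fat diet held in the same way; 9 pairs), and these 34 arrays were used here only to look for each NW difference a second time. Each rat and tissue had 1 Clariom S array, a chip that reads a gene from probes spread over its exons, and the values were log2 signals normalized with RMA.

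The hippocampus is a brain region that takes part in memory and spatial learning. It holds excitatory pyramidal and granule neurons, inhibitory interneurons, astrocytes, the oligodendrocytes that make myelin, the resident macrophages called microglia, blood vessels and, at its edge, choroid plexus and meninges. PBMC are the blood cells with a single round nucleus, that is T cells, B cells, natural killer (NK) cells and monocytes, and platelets often come along in the preparation. Both samples are mixtures, so that fewer cells of a type and less RNA per cell cannot be told apart.

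A log2 signal rises with the amount of RNA but is set by the probes too, so differences between tissues were taken for 1 gene at a time, and brightness served only to choose which equal genes to name. As a level for a gene that neither tissue should use, the 95th percentile of 1057 olfactory receptor genes lay at 5.99 to 6.25 on the hippocampus arrays and at 6.11 to 6.47 on the PBMC arrays (the olfactory level, chosen after the values had been seen). Where all 8 arrays of the dimmer tissue lay at or under it, the size of the difference is a lower bound, given as "at least N-fold". A stricter background, the 95th percentile of 1153 negative control features, lay at 8.20 to 8.45 in hippocampus and at 8.63 to 9.51 in PBMC. The PBMC arrays had been reported before the hippocampus arrays, so tissue and array batch cannot be told apart. Arrays correlated more closely within hippocampus (median r of each array with the other 7 between 0.987 and 0.991) than within PBMC (0.974 to 0.984), and the first principal component, which carried 91.5% of the variance, divided the tissues.

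The 6 marker genes went with the tissue labels. *Snap25*, which encodes a SNARE protein of the presynaptic membrane of neurons, read 12.94, 12.98 and 13.09 log2 in hippocampus (lowest, median and highest of 8 arrays) and 5.65, 6.01 and 7.69 log2 in PBMC. No PBMC array came near a hippocampus array, and the log2 difference, hippocampus minus PBMC, was 6.70 ± 0.21 (SE, n = 8 pairs, limma, adjusted p = 6.4e-13). *Gfap*, the intermediate filament of astrocytes, read 10.46, 10.65 and 10.97 in hippocampus and 5.15, 5.57 and 6.36 in PBMC, a log2 difference of 5.03 ± 0.14. *Mbp*, a structural protein of myelin, read 12.04, 12.20 and 12.36 in hippocampus and 7.98, 8.18 and 8.56 in PBMC, a difference of 4.01 ± 0.08. For *Mbp* all 8 PBMC arrays lay above the olfactory level, whereas for *Snap25* and *Gfap* most did not. *Ptprc* (CD45), the phosphatase found on all leukocytes, read 4.41, 5.21 and 5.52 in hippocampus and 11.29, 11.75 and 12.13 in PBMC, so that it was at least 49.7-fold lower in hippocampus. *Cd3e*, a chain of the T cell receptor complex, read 5.25, 6.37 and 6.47 in hippocampus and 10.91, 11.18 and 11.40 in PBMC, a log2 difference of -5.10 ± 0.14. *Cd79a*, the B cell marker named for this comparison, was not analysed here, and its partner in the B cell receptor, *Cd79b*, was used in its place. *Cd79b* read 4.65, 5.14 and 5.70 in hippocampus and 9.58, 10.10 and 10.99 in PBMC, at least 17.6-fold lower in hippocampus. In the plot of the markers by array, no gene had overlapping tissues.

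**Figure D1:**
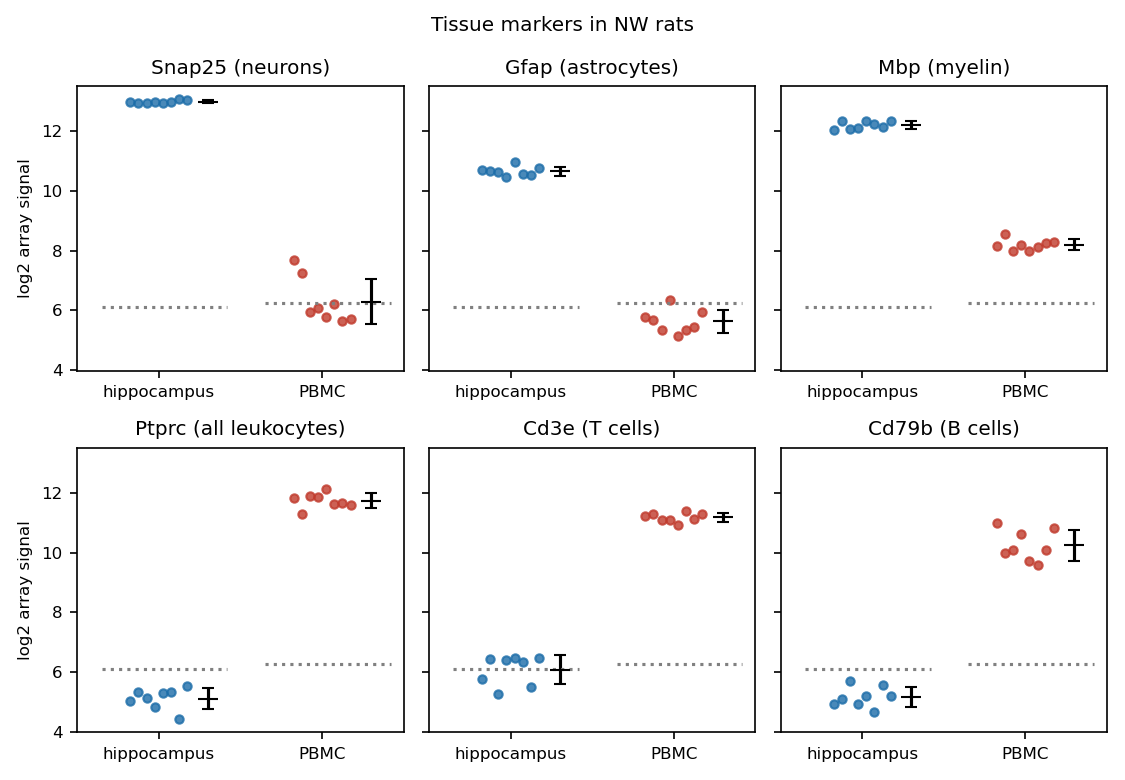
Log2 signal of *Snap25*, *Gfap*, *Mbp*, *Ptprc*, *Cd3e* and *Cd79b* on each array of NW rats, hippocampus on the left and PBMC on the right of each panel, with the mean and SD of 8 arrays (black) and the mean olfactory level of the tissue (dotted). For *Snap25* the hippocampus arrays sit between 12.94 and 13.09 and the PBMC arrays between 5.65 and 7.69, with replicates 1 and 2 the highest of the PBMC arrays.

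Of 15049 probe clusters with 1 gene symbol, 2574 (17.1%) were at least 2-fold higher in hippocampus and 1801 (12%) were at least 2-fold lower, both at an adjusted p under 0.05, together 29.1%. Without the 2-fold limit 32.9% were higher and 37.1% lower. The split moved with the scale, to 3180 higher and 1341 lower after centring each array on the genes above background in both tissues and to 6978 and 697 after centring on the negative control features. The log2 difference reached 2 or more in size for 1341 of the genes higher in hippocampus and 711 of those lower, and 6 or more for 40 and 11 of them. For 894 of the genes higher in hippocampus all PBMC arrays lay at or under the olfactory level, as did all hippocampus arrays for 321 of the genes lower in hippocampus. Levels of 283 genes (1.88%) were equal, meaning above the negative control background in both tissues and within 0.5 log2 of each other by 2 one-sided tests. The median log2 difference over all genes was -0.08. Among the 1216 genes above the negative control background in both tissues, 89 were higher in hippocampus (7.32%), 246 lower (20.2%) and 283 equal (23.3%), and the remaining 598 fell in none of these classes.

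**Figure D2:**
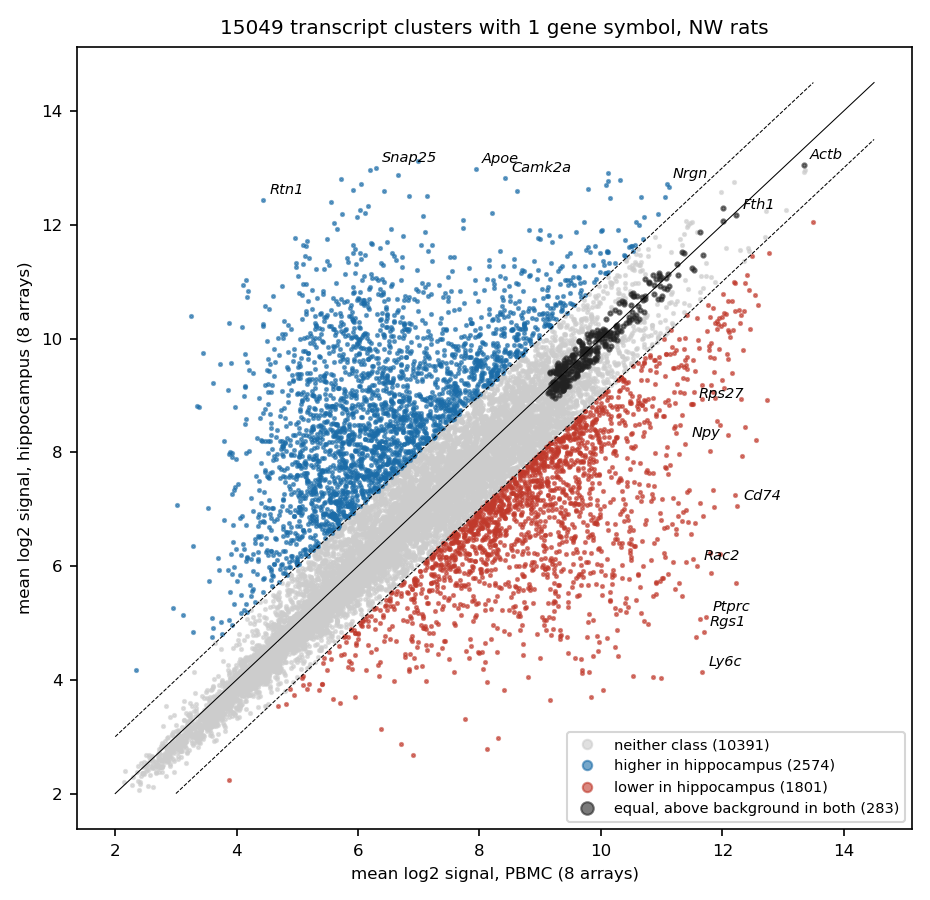
Mean log2 signal in hippocampus against mean log2 signal in PBMC for 15049 probe clusters (8 arrays of each tissue), with the genes higher in hippocampus, lower in hippocampus and equal in colour. The genes furthest from the diagonal are *Rtn1*, at a measured log2 difference of 7.99, and *Ly6c*, at -7.54.

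The same direction was seen in the rats on the 60% fat diet. Of the 2574 genes higher in hippocampus of NW rats, 2475 were also called higher in MONW rats (96.2%, where 17.1% of all genes were called) and 2481 in MONW-Lep rats (96.4%, with 17.2% of all genes called). Of the 1801 genes lower in hippocampus, 1681 were also called lower in MONW rats (93.3%, with 11.8% of all genes called) and 1660 in MONW-Lep rats (92.2%, with 11.6% of all genes called). No gene called in NW rats had the opposite sign in either group. *Snap25* differed by 6.86 log2 in MONW rats and 7.13 in MONW-Lep rats, and *Ptprc* by -6.56 and -6.58.

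The 15 genes with the largest measured differences upward were genes of neurons and astrocytes. *Rtn1*, a reticulon of the endoplasmic reticulum of neurons, read 12.35, 12.42 and 12.53 in hippocampus and 3.73, 4.33 and 5.28 in PBMC, at least 71.9-fold higher in hippocampus. *Amph* (amphiphysin), which acts in the retrieval of synaptic vesicles, read 10.07, 10.41 and 10.66 in hippocampus and 2.69, 3.22 and 4.01 in PBMC, at least 17.6-fold higher. *Gpm6a*, a membrane glycoprotein of neurons, read 12.71, 12.80 and 12.90 in hippocampus and 5.06, 5.52 and 6.70 in PBMC, a log2 difference of 7.10 ± 0.15. All 3 genes kept a wide gap between the lowest hippocampus array and the highest PBMC array. *Sparcl1*, a matrix protein released by astrocytes, read 12.33, 12.39 and 12.52 in hippocampus and 5.01, 5.35 and 6.56 in PBMC, a difference of 6.85 ± 0.16. *Slc1a2*, the glutamate transporter of astrocytes, read 12.88, 12.98 and 13.01 in hippocampus and 5.62, 6.01 and 7.18 in PBMC, a difference of 6.77 ± 0.15. *Map2*, a microtubule protein of dendrites, read 11.60, 11.79 and 11.87 in hippocampus and 4.28, 5.07 and 5.47 in PBMC, at least 45.3-fold higher in hippocampus. The others were *Elmod1*, the doublecortin-like kinase *Dclk1*, the prohormone-processing enzyme *Cpe*, *Snap25*, the calcium sensor of vesicle release *Syt1*, the granule protein *Scg2*, the sodium pump subunit *Atp1b2*, the adhesion molecule *Ncam1* and the GABA-A receptor subunit *Gabra2*, with measured log2 differences from 6.54 (*Gabra2*) to 6.89 (*Elmod1*). PBMC lay at or under the olfactory level for 9 of the 15, so these differences have no order among themselves. For the other 6 only 2 or 3 of the 8 PBMC arrays lay above it, so their sizes are limited by that level too.

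The PBMC arrays 1 and 2 stood apart for these genes. Over the 40 genes with a log2 difference of 6 or more, the median deviation from the PBMC median of each gene was 0.34 on array 1 and 0.40 on array 2, against -0.19 to 0.0004 on the other 6. *Snap25* read 7.69 and 7.24 on PBMC arrays 1 and 2 and 5.65 to 6.22 on the others, and *Slc1a2* read 7.18 and 6.60 there. Without array numbers 1 and 2 the log2 difference of *Snap25* was 7.10 and that of *Slc1a2* was 6.99. The part of brain RNA or of scan signal in these readings was not tested.

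Genes of neurons rose as a group in hippocampus. All 20 measured genes of the pan-neuronal list passed, with a median log2 difference of 4.44 (4.10 with the genes at or under the olfactory level set to their bound), beside -0.08 over all genes. *Syp*, the synaptophysin of synaptic vesicles, read 12.49, 12.59 and 12.68 in hippocampus and 5.99, 6.51 and 6.58 in PBMC, a difference of 6.16 ± 0.09. *Uchl1*, a ubiquitin hydrolase abundant in neurons, differed by 5.39 ± 0.08, and the growth-cone protein *Stmn2* by 6.16 ± 0.10. All 22 measured genes of vesicle release were higher (median 4.01), among them the complexins *Cplx1* (4.95) and *Cplx2* (4.40), the synapsin *Syn2* (5.46) and the dynamin *Dnm1* (6.09). All 18 measured genes of the postsynaptic density were higher as well (median 4.07, or 3.50 with bounds). *Dlg2*, a scaffold that holds receptors at the synapse, read 11.19, 11.49 and 11.55 in hippocampus and 4.92, 5.07 and 5.56 in PBMC, and the kinase subunit *Camk2a* differed by 4.40 ± 0.08.

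Of the receptor and channel genes that passed the test, most were higher. Of 20 glutamate receptor genes 17 passed upward and none downward (median 3.25, or 2.26 with bounds). *Grin2b*, an NMDA receptor subunit, read 11.07, 11.16 and 11.40 in hippocampus and 5.18, 5.45 and 5.68 in PBMC, at least 31.1-fold higher, and the AMPA receptor subunit *Gria4* was at least 11.2-fold higher. All 15 genes of the GABA system were higher (median 4.89, or 3.83 with bounds), with *Gabra5* at least 19.9-fold and *Gad1*, which makes GABA from glutamate, at least 15.5-fold higher, and of the 16 GABA-A receptor subunits as a family 9 were higher and none lower (median 2.25, or 1.31 with bounds). Other receptor families had fewer calls, with 7 of 14 serotonin receptors, 2 of 5 glycine receptor subunits and 2 of 16 nicotinic receptor subunits higher, and 1 nicotinic subunit lower. Of 86 potassium channel subunits and channel-interacting proteins 46 were higher, 3 lower and 37 in no class. *Kcnip4*, a subunit that modulates A-type channels, read 10.05, 10.25 and 10.46 in hippocampus and 3.76, 4.45 and 4.84 in PBMC, at least 15.9-fold higher. The 3 lower channels were *Kcnn4* and *Kcna3* (-1.23 ± 0.09), the potassium channels that set the membrane potential of activated lymphocytes, and *Kcnk6* (-1.40 ± 0.11). *Kcnn4* read 4.45, 4.79 and 5.09 in hippocampus and 8.80, 9.17 and 9.63 in PBMC, at least 8.42-fold lower in hippocampus. For *Kcna3* both tissues lay above the olfactory level on all arrays. Of 11 sodium channel genes 7 were higher and none lower, and of 24 calcium channel genes 18 were higher and none lower. *Scn3b*, an auxiliary sodium channel subunit, read 10.85, 11.13 and 11.40 in hippocampus and 4.51, 4.98 and 5.49 in PBMC. Protocadherins (16 of 23 higher), cadherins (11 of 19) and synaptotagmins (12 of 15) had no member lower.

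Genes tied to hippocampal subfields and to interneurons were less uniform. Of 16 subfield genes 13 were higher and 1 lower (median 1.99). *Neurod6*, a transcription factor of pyramidal neurons, read 10.10, 10.69 and 11.05 in hippocampus and 4.37, 5.15 and 5.79 in PBMC, at least 21.0-fold higher, and *Prox1*, a factor of dentate granule cells, was at least 4.11-fold higher. The gene that was lower was *Man1a1*, a mannosidase of the Golgi (-1.65 ± 0.09). Of 20 interneuron and neuropeptide genes 12 were higher and 1 lower (median 1.93). *Pvalb* and *Sst*, which mark 2 classes of interneurons, differed by 3.71 ± 0.08 and 2.50 ± 0.10. The gene that was lower was *Npy*, a neuropeptide of interneurons that in rats is also made by megakaryocytes and platelets. *Npy* read 7.78, 8.17 and 8.62 in hippocampus and 9.88, 11.52 and 12.05 in PBMC, a log2 difference of -3.24 ± 0.17 (adjusted p = 2.3e-10).

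Glia gave the same picture as neurons, except for microglia. Of 19 astrocyte genes 17 were higher and none lower (median 4.13). *Gja1*, the main connexin of astrocytes, read 11.71, 11.97 and 12.08 in hippocampus and 5.16, 5.70 and 6.03 in PBMC, at least 50.4-fold higher, and the aldolase *Aldoc* differed by 4.72 ± 0.09. Of 17 genes of myelin and oligodendrocytes 14 were higher and none lower (median 3.21). *Mobp*, a myelin protein, read 12.21, 12.48 and 12.80 in hippocampus and 6.46, 6.86 and 7.04 in PBMC, a difference of 5.67 ± 0.09. Of 10 genes of oligodendrocyte precursors 9 were higher (median 3.13), among them *Ptprz1* (at least 19.2-fold) and the growth factor receptor *Pdgfra* (3.70).

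Microglia share most of their marker genes with blood monocytes, and their list was split. Of 18 genes 3 were higher in hippocampus, 5 were lower and 1 was equal (median 0.02, or -0.067 after quantile normalization). *C1qb*, a chain of the complement protein C1q, read 7.42, 7.84 and 8.17 in hippocampus and 5.58, 5.78 and 6.08 in PBMC, at least 2.91-fold higher in hippocampus. *Gpr34*, a lysophospholipid receptor of microglia, was at least 2.13-fold higher, and *Sall1*, a transcription factor of microglia, at least 1.11-fold. *Laptm5*, a lysosomal membrane protein of blood-forming cells, read 8.11, 8.49 and 8.71 in hippocampus and 12.16, 12.33 and 12.59 in PBMC, a difference of -3.94 ± 0.10. *Tyrobp*, a signalling adaptor, differed by -3.55 ± 0.10, *Itgam* (CD11b) by -2.17 ± 0.13, the growth factor receptor *Csf1r* by -2.09 ± 0.11 and *Aif1* (Iba1) by -1.41 ± 0.16. *Ctss*, the cathepsin S of antigen-presenting cells, was equal, at 9.49, 9.64 and 10.06 in hippocampus and 9.21, 9.69 and 10.13 in PBMC.

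Cells that come with a dissected hippocampus were also seen. Of 20 genes of endothelium and mural cells 12 were higher and 2 lower (median 1.24, or 0.76 with bounds). *Rgs5*, a marker of pericytes, differed by 3.94 ± 0.11 and the tight-junction protein *Cldn5* by 1.71 ± 0.08. The 2 lower genes were *Pecam1* (-3.04 ± 0.11), an adhesion molecule that leukocytes and platelets carry too, and the clotting factor *Vwf* (-1.33 ± 0.15), which platelets carry too. Of 16 genes of choroid plexus, ependyma and meninges 11 were higher (median 1.58, or 0.94 with bounds), and here the hippocampus arrays varied. *Ttr*, the thyroxine carrier made in bulk by choroid plexus, read 8.32, 8.77 and 9.71 on hippocampus arrays 3, 6 and 7 and 12.15 to 13.30 on the other 5, against 6.44 to 8.46 on the PBMC arrays. The tissues overlapped for *Ttr*, whose log2 difference was 4.15 ± 0.54. The same 3 arrays had the lowest mean over the whole list, 6.98 to 7.28 against 7.78 to 8.96 on the other 5. Among the 10 detected genes that varied most between hippocampus arrays, 4 had their 3 lowest values on these arrays. How much choroid plexus or meninges each dissection took along was not tested.

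**Figure D3:**
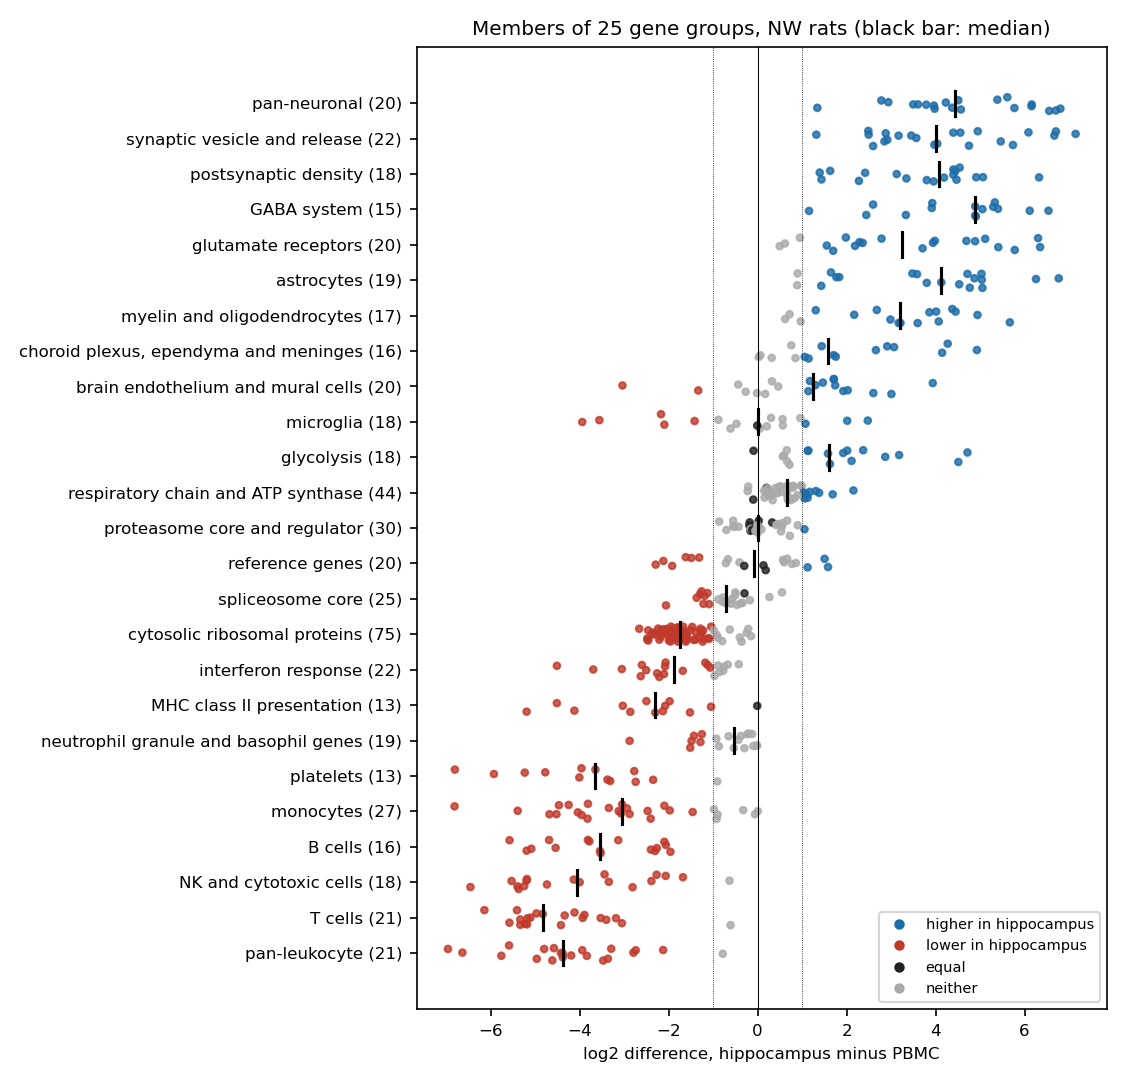
Log2 difference, hippocampus minus PBMC, of each measured gene of 25 lists and families (1 point for each gene, coloured by class, with the number of genes in brackets), with the median as a black bar and the 2-fold limits dotted, NW rats, 8 pairs. Neuronal and glial lists lie to the right of 0 and leukocyte lists to the left, and the microglia list has its median at 0.02.

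The 15 genes with the largest measured differences downward belonged to lymphocytes, monocytes and platelets. *Ly6c*, a surface protein of leukocytes, read 3.36, 4.07 and 4.60 in hippocampus and 11.20, 11.72 and 11.88 in PBMC, at least 47.5-fold lower in hippocampus. *Il2rg*, the shared chain of several interleukin receptors, read 5.38, 5.79 and 5.99 in hippocampus and 12.13, 12.23 and 12.33 in PBMC, at least 69.6-fold lower. *Cytip*, which regulates adhesion of lymphocytes, read 3.68, 4.03 and 4.47 in hippocampus and 10.86, 10.99 and 11.12 in PBMC, at least 29.4-fold lower. For all 3 the hippocampus arrays lay under the olfactory level, and no hippocampus array came near a PBMC array. *Rgs1*, a brake on chemokine receptor signals, read 4.57, 4.88 and 4.99 in hippocampus and 10.62, 11.82 and 12.25 in PBMC, and *Cxcr4*, a chemokine receptor, read 5.35, 5.47 and 5.58 in hippocampus and 10.36, 11.44 and 11.82 in PBMC. *Klrk1* (NKG2D), an activating receptor of NK cells, read 3.51, 4.06 and 4.61 in hippocampus and 10.24, 10.53 and 10.80 in PBMC. The others were *Plac8*, the platelet receptor *Clec1b*, *Ptprc*, the secreted phospholipase *Pla2g2a*, the purinergic-type receptor *P2ry10*, *Cd3g*, the platelet chemokine *Pf4*, the T cell ligand *Cd40lg* and *Ms4a4c*, with measured log2 differences from -5.79 (*Ms4a4c*) to -6.81 (*Plac8*). All hippocampus arrays lay at or under the olfactory level for all 15, so these differences have no order among themselves. Members of *Ly6*, *Klr*, RT1, ribosomal and haemoglobin families have close copies in the rat genome, and their probes may read more than 1 of them.

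The lists of blood cells fell in hippocampus nearly without exception. Of 21 pan-leukocyte genes 20 were lower and none higher (median -4.38). *Cd37*, a tetraspanin of leukocytes, read 5.90, 6.22 and 6.49 in hippocampus and 11.83, 11.96 and 12.14 in PBMC, a log2 difference of -5.76 ± 0.09. *Rac2*, the Rac GTPase of blood cells, read 5.53, 6.02 and 6.39 in hippocampus and 11.22, 11.60 and 11.88 in PBMC, a difference of -5.58 ± 0.09. Of 21 T cell genes 20 were lower (median -4.83, or -4.11 with bounds), among them the costimulatory receptors *Cd27* (-5.33) and *Cd28* (at least 30.1-fold) and the coreceptor *Cd8a*, which read 5.44, 5.74 and 6.06 in hippocampus and 10.66, 10.93 and 11.16 in PBMC. All 16 B cell genes were lower (median -3.53, or -2.48 with bounds), among them the IgE receptor *Fcer2* (at least 12-fold). Of 18 genes of NK and cytotoxic cells 17 were lower (median -4.06, or -3.40 with bounds), with the granzyme *Gzmk* at least 12.1-fold lower and the receptor chain *Il2rb* at -5.24. Of 27 monocyte genes 21 were lower and none higher (median -3.04). *Cybb*, the oxidase subunit that makes superoxide in phagocytes, read 6.18, 6.63 and 6.98 in hippocampus and 10.53, 11.29 and 11.58 in PBMC. *Lyz2*, the lysozyme of macrophages and microglia, read 8.46, 8.87 and 9.59 in hippocampus and 12.54, 12.74 and 12.89 in PBMC, above the negative control background on all arrays of both tissues.

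The lists of neutrophil and basophil genes, erythroid cells and platelets differed among themselves. Of 19 genes of neutrophil granules and basophils 6 were lower in hippocampus, and 3 lay above the olfactory level on 6 or more PBMC arrays (median difference -0.53, or 0.50 after centring on the negative control features), and *S100a8*, an abundant neutrophil gene, read 3.91, 4.34 and 4.66 in hippocampus and only 5.14, 5.89 and 6.98 in PBMC, where its median lay under that level. Of 13 erythroid genes 10 were lower (median -1.43, or -1.04 with bounds). *Hbb*, the beta chain of haemoglobin, read 8.98, 9.81 and 10.34 in hippocampus and 11.94, 12.36 and 12.60 in PBMC, above the negative control background on all arrays of both tissues. Of 13 platelet genes 12 were lower (median -3.64). *Pf4* read 5.52, 5.94 and 6.07 in hippocampus and 9.20, 12.15 and 12.76 in PBMC, and *Clec1b* read 3.61, 4.07 and 4.43 in hippocampus and 7.38, 11.16 and 12.01 in PBMC.

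PBMC array 6 stood apart for the platelet genes, and by smaller gaps for some other lists. The mean over the 13 genes was 5.60 to 5.78 on the hippocampus arrays, against 7.47 on PBMC array 6 and 9.24 to 10.59 on the other 7 PBMC arrays. The monocyte list was also lowest on PBMC array 6 (8.73, against 9.10 to 9.56 on the others). So was the Toll-like receptor pathway (6.78, against 7.12 to 7.63), as were the lists of B cells (8.57) and MHC class II presentation (9.01). The T cell list was highest there (10.45, against 10.11 to 10.395). *Clec1b* read 7.38 on PBMC array 6 and 10.79 to 12.01 on the others. All of the 10 detected genes that varied most between PBMC arrays had their lowest value on array 6, among them the clotting factor *F13a1* (SD 1.34), the thrombospondin *Thbs1* (SD 1.23) and the iron exporter *Slc40a1* (SD 1.38). 3 genes best known from brain were low on PBMC array 6 too, as the platelet list was (*Nrgn* and *Clu* were chosen after their values had been seen). *Npy* read 9.88 on PBMC array 6 and 11.26 to 12.05 on the others. *Nrgn* (neurogranin), a calmodulin-binding protein of dendrites, read 12.59, 12.71 and 12.82 in hippocampus and 9.50, 11.08 and 11.84 in PBMC, with its lowest PBMC value on array 6. *Clu* (clusterin), a secreted chaperone of astrocytes that platelets also carry, read 12.33, 12.51 and 12.71 in hippocampus and 8.55, 10.71 and 11.62 in PBMC, again lowest on array 6. Without array number 6 the log2 difference was -3.42 for *Npy*, 1.41 for *Nrgn*, 1.56 for *Clu* and -7.24 for *Clec1b*. The part of RNA from platelets, or from other cells that were low on array 6, in the PBMC levels of *Npy*, *Nrgn* and *Clu* was not tested.

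**Figure D4:**
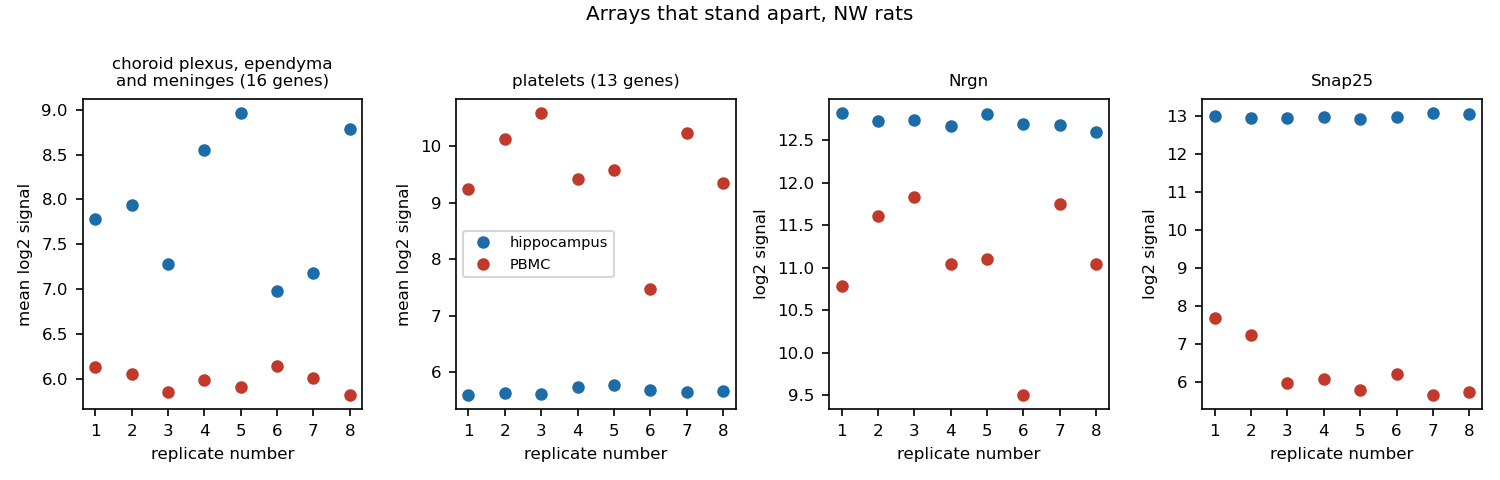
Mean log2 signal over the genes of the choroid plexus list and the platelet list, and log2 signal of *Nrgn* and *Snap25*, against the replicate number of the array, NW rats, hippocampus in blue and PBMC in red, 1 dot for each array. PBMC array 6 has the lowest platelet mean of the PBMC arrays (7.47), and hippocampus arrays 3, 6 and 7 have the lowest choroid plexus means of the hippocampus arrays (7.28, 6.98 and 7.18).

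Most immune families had more members lower than higher in hippocampus, with single members that went the other way. All 8 interferon regulatory factors and 5 of 6 STAT factors were lower. *Irf1* read 5.74, 6.11 and 6.30 in hippocampus and 9.33, 9.70 and 10.49 in PBMC, and *Stat4*, which carries the signal of interleukin 12, read 3.85, 4.12 and 4.48 in hippocampus and 9.62, 9.77 and 10.14 in PBMC. All 7 GIMAP GTPases, which are tied to lymphocyte survival, were lower, among them *Gimap1* (-2.45) and *Gimap7* (at least 17.6-fold). Of 67 genes with CD symbols 40 were lower and 4 higher, namely the tetraspanins *Cd81* (1.47) and *Cd63* (1.66), the inhibitory ligand *Cd200* (1.80) and the vessel marker *Cd34* (at least 1.35-fold). Of 34 interleukin receptor genes 13 were lower and 2 higher, and of 18 integrins 9 were lower and 2 higher. Of 33 chemokine ligands 8 were lower, including *Ccl5* (at least 36.3-fold), and 4 were higher, including *Cx3cl1* (fractalkine), which neurons present to microglia. *Cx3cl1* read 9.84, 10.17 and 10.45 in hippocampus and 5.39, 5.84 and 6.19 in PBMC, at least 15-fold higher in hippocampus. *Il33* and *Il34*, cytokines of glia and neurons, were at least 3.83-fold and 3.14-fold higher, and were the only 2 of 31 interleukins that were higher, beside 7 that were lower and 22 in no class. The medians of the interleukins (-0.16, or 0.12 after centring on the genes above background in both tissues) and of the chemokine ligands (-0.21, or 0.065 after the same centring) lay near that of all genes.

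Antigen presentation and interferon genes were lower in hippocampus. Of 13 genes of MHC class II presentation 12 were lower and *Ctss* was equal (median -2.30). *RT1-Da*, an MHC class II alpha chain, read 7.07, 7.25 and 7.91 in hippocampus and 11.28, 11.98 and 12.18 in PBMC, a difference of -4.51 ± 0.10, and the invariant chain *Cd74* differed by -5.19 ± 0.17. Of 13 genes of MHC class I presentation 10 were lower (median -1.93), including *B2m*, the light chain of class I molecules (-2.29 ± 0.09). Of 22 interferon-response genes 15 were lower (median -1.87, or -1.11 with bounds). *Mx1*, an antiviral GTPase, read 5.32, 5.61 and 6.29 in hippocampus and 9.97, 10.14 and 10.48 in PBMC. Of 16 genes of the Toll-like receptor pathway 10 were lower, among them the RNA sensor *Tlr8* (at least 12.8-fold) and the adaptor *Myd88* (-2.90).

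Families that both tissues use differed in part. Their counts stand beside 17.1% of all genes higher and 12% lower. Of 75 cytosolic ribosomal protein genes 65 were lower in hippocampus and none higher (median -1.74). *Rps24*, a protein of the small subunit, read 8.92, 9.04 and 9.27 in hippocampus and 11.45, 11.51 and 11.69 in PBMC, a log2 difference of -2.48 ± 0.08. The 66 mitochondrial ribosomal protein genes had 1 higher, 2 lower and 2 equal members (median -0.12, and above 0 under 3 of the 4 other scalings). Of 25 spliceosome genes 8 were lower and 1 was equal (median -0.71, or 0.32 after centring on the negative control features), with *Snrpe* at -2.06. Of 25 genes of DNA replication and mitosis 7 were lower (median -0.63, or 0.41 after centring on the negative control features), including the replicative helicase subunits *Mcm3* (at least 7.74-fold) and *Mcm6* (at least 3.57-fold). The exception was *Tyms*, which makes thymidylate, at 1.34 ± 0.10. Glycolysis genes went the other way. Of 18 glycolysis genes 12 were higher and none lower (median 1.60), and *Pfkm*, a phosphofructokinase subunit, read 10.46, 10.62 and 10.89 in hippocampus and 7.27, 7.48 and 7.61 in PBMC. Of 44 genes of the respiratory chain and ATP synthase 9 were higher (20.5%, near the 17.1% of all genes), none was lower and 2 were equal (median 0.67), with the complex I subunit *Ndufa5* at 2.15 ± 0.09. Of the 13 ATP synthase subunits as a family none was higher and 1 lower, and of 14 cytochrome c oxidase subunits 1 was higher and none lower. Of 18 genes of sterol synthesis 6 were higher and none lower (median 0.47), including *Sqle* (1.96) and *Msmo1* (2.03). Of 21 proton pump (V-ATPase) genes with Atp6v symbols 10 were higher, none was lower and 2 were equal.

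Some families gave few or no calls. The part of low signal in this was not tested. In hippocampus 15 of 20 collagens and 11 of 17 Wnt genes lay above the olfactory level on 6 or more arrays. In PBMC 14 collagens and 7 Wnt genes did so. Among all genes (15037 symbols) 10163 did so in hippocampus and 9002 in PBMC. Of the vomeronasal receptors 1 did so in each tissue, and of the bitter taste receptors 0. No collagen or Wnt gene lay above the stricter negative control background in both tissues. None of 98 vomeronasal receptors, 32 bitter taste receptors, 40 defensins, 23 Hox factors, 20 collagens and 17 Wnt genes was called in either direction with limma, although 99 of these 230 genes had an unadjusted p under 0.05, and the largest difference among them was 0.98 log2 in size. Of 1057 olfactory receptors 5 were lower in hippocampus and none higher, and the lowest was *Or12j4*, which read 3.97, 4.33 and 4.52 in hippocampus and 5.56, 6.27 and 7.25 in PBMC.

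In a number of small families members differed in opposite directions. *Snap23*, the relative of *Snap25* in cells other than neurons, read 7.30, 7.60 and 7.99 in hippocampus and 9.09, 9.63 and 10.19 in PBMC, a log2 difference of -2.09 ± 0.14, opposite to *Snap25*. Among syntaxins *Stx1a* of the synapse differed by 1.32 and *Stx11* of cytotoxic lymphocytes was at least 4.57-fold lower. Among vesicle SNAREs *Vamp2* differed by 2.49 and *Vamp8* by -1.27. For dynamins, which cut vesicles from the membrane, *Dnm1* differed by 6.09, *Dnm2* by -1.08, and *Dnm3* was at least 4.5-fold higher. *Rac2* was lower by the values above whereas *Rac1* read 11.78, 11.87 and 11.97 in hippocampus and 10.93, 11.59 and 11.97 in PBMC, a difference of 0.30 ± 0.11 that met neither the 2-fold limit nor the test of equality. The actin-bundling plastins *Pls3* (at least 7.27-fold higher) and *Lcp1* (-3.36) went opposite ways. Enolases and glycogen phosphorylases split likewise, whereas the 3 phosphofructokinases and 2 aldolases were all higher. The enolase *Eno2* of neurons read 10.71, 10.85 and 11.06 in hippocampus and 5.85, 6.38 and 6.96 in PBMC, *Eno3* differed by -2.26, and *Eno1* by 0.72, below the 2-fold limit. The glycogen phosphorylases of brain, *Pygb*, and of liver, *Pygl*, differed by 2.42 ± 0.08 and -2.03 ± 0.12.

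Some signalling and RNA-binding families had members on both sides and others did not. CaM kinases (6 of 9), calcineurin subunits (3 of 4) and plasma membrane calcium pumps (3 of 4) had members higher and none lower, and NFAT factors had 3 of 5 lower and none higher. Protein kinase C members *Prkce* (2.69) and *Prkcz* (2.13) were higher and *Prkch* (-4.39), *Prkcq* (-3.37) and *Prkcd* (-2.44) lower, *Prkcq* being the form used by the T cell receptor. Of the IP3 receptors, which release calcium from stores, *Itpr1* differed by 1.27, *Itpr2* by -2.46 and *Itpr3* by -1.23, and of the calcium pumps of the same store *Atp2a2* differed by 1.82 and *Atp2a3* by -2.31. The splicing regulators *Ptbp1* (-2.28) and *Ptbp3* (-2.91) were lower and the neuronal *Ptbp2* (1.15) higher, and the neuronal RNA-binding proteins *Elavl4* (at least 7.76-fold) and *Elavl3* (3.50) were higher while the ubiquitous *Elavl1* differed by -0.70, below the limit. Of the 2 proton pump subunits set side by side, *Atp6v0a1* read 11.64, 11.77 and 11.87 in hippocampus and 8.38, 8.99 and 9.45 in PBMC, whereas *Tcirg1* read 6.74, 6.94 and 7.11 in hippocampus and 8.09, 8.44 and 8.86 in PBMC. Septins, which form filaments at membranes, had *Septin3* at least 22.8-fold higher, *Septin1* at least 30.4-fold lower and *Septin11* equal. The plot of paralogs shows most of these families on 1 scale.

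**Figure D5:**
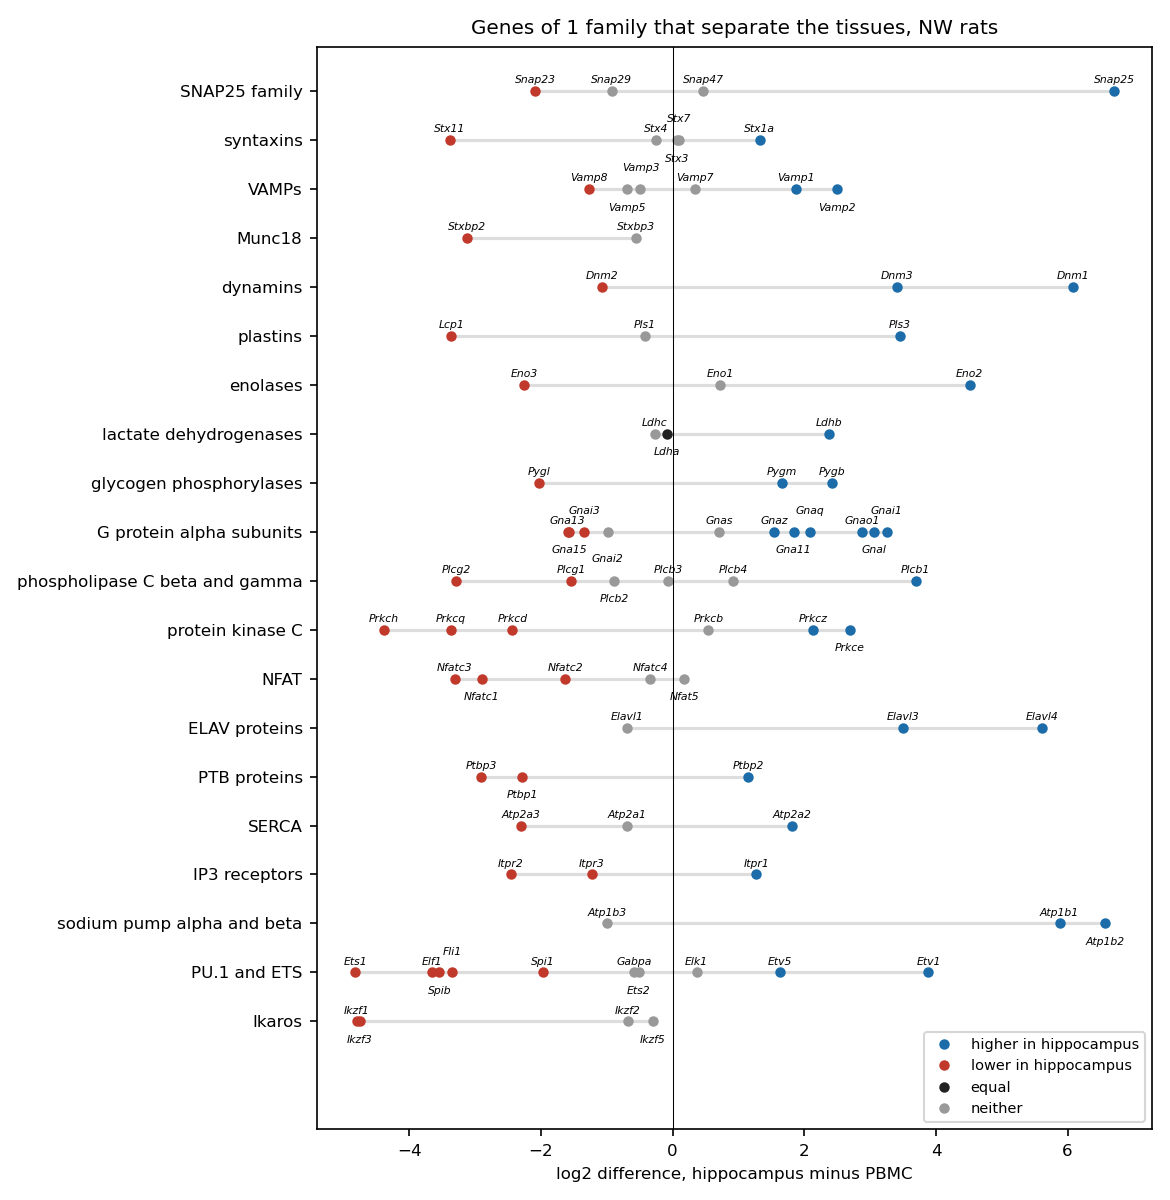
Log2 difference, hippocampus minus PBMC, of the members of small gene families (points, coloured by class, with a grey line over the range of each family), NW rats, 8 pairs. *Snap25* (6.70) and *Snap23* (-2.09) lie on opposite sides of 0, as do *Itpr1* (1.27) and *Itpr2* (-2.46).

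Transcription factors that are known to keep the programmes of blood cells or of neurons differed too. The Ikaros factors *Ikzf1* (-4.80 ± 0.10) and *Ikzf3* (at least 22.8-fold) were lower in hippocampus. *Ets1* read 6.71, 7.05 and 7.45 in hippocampus and 11.76, 11.86 and 12.03 in PBMC, and its relatives *Elf1* (-3.65), *Spib* (at least 5.91-fold), *Fli1* (-3.34) and *Spi1* (PU.1, -1.97) were lower as well, while *Etv1* (3.89) and *Etv5* (1.63) of the same family were higher. *Rest*, the repressor that silences neuronal genes in other cells, read 6.46, 6.73 and 6.99 in hippocampus and 9.73, 9.97 and 10.03 in PBMC, a difference of -3.21 ± 0.09.

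RE1, the element that *Rest* binds, and the site of PU.1 were therefore looked for in RefSeq promoter windows (build GRCr8). Each window ran from 250 bases before to 50 after a start position listed for the gene, which need not be its outermost start. Windows were at hand for 12435 of the genes. The left and right parts of RE1 were searched as TTCAGCACC and GGACAGC and the PU.1 site as GAGGAAGT, each on both strands; the parts share no letters in the matches shown. The left part was in 0.466% of all promoters, in 0.986% of those of genes higher in hippocampus and in 0.269% of those of genes lower, and the right part was in 7.31%, 8.33% and 7.06% of them. Both parts stood in 11 promoters (0.0885%), 7 of them of genes higher in hippocampus, none of a gene lower, beside 16.3% higher and 12% lower among all promoters. The 7 genes were *Sez6l2*, *Cacng3*, *Unc13a*, *Disp2*, *Scg2*, *Ptprn2* and *Cntnap5b*. The PU.1 letters were in 2.43% of all promoters, in 1.87% of those of genes higher in hippocampus and in 4.84% of those of genes lower, and in 8.11% of 74 promoters from the lists of leukocytes, T cells, B cells, NK cells and monocytes. These matches are a description of letters in a window. No rule was set for the order of the 2 RE1 parts or the distance between them, so a window with both need not hold a whole RE1. 2 promoters with both RE1 parts and 2 with the PU.1 letters are shown, chosen among genes of the lists above, on the strand of the gene with the searched letters in capitals. *Scg2* read 10.69, 10.84 and 10.98 in hippocampus and 2.88, 4.14 and 5.11 in PBMC, and *Unc13a*, which primes vesicles for release, read 9.20, 9.29 and 9.48 in hippocampus and 6.11, 6.47 and 6.75 in PBMC.
Scg2, chr9:88256817-88257116, minus strand: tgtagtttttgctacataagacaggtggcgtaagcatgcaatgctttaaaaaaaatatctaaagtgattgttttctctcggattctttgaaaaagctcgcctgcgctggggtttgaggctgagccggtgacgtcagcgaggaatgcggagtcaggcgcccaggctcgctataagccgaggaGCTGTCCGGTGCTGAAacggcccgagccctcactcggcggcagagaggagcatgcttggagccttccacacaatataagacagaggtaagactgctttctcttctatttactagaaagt
Unc13a, chr16:18415737-18416036, minus strand: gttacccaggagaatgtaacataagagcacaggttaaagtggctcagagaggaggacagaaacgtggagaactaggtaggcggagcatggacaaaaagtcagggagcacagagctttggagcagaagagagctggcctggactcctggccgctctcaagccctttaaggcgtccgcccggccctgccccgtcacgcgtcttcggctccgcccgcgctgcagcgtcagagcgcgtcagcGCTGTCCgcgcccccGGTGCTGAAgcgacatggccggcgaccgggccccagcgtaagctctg
Cd37, chr1:104860735-104861034, minus strand: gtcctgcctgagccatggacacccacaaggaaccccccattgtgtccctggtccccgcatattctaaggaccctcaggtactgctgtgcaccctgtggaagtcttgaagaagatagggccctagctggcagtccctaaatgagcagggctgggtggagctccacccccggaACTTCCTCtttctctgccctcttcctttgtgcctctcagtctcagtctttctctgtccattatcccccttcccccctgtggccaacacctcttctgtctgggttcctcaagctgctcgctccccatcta
Cd53, chr2:197087847-197088146, minus strand: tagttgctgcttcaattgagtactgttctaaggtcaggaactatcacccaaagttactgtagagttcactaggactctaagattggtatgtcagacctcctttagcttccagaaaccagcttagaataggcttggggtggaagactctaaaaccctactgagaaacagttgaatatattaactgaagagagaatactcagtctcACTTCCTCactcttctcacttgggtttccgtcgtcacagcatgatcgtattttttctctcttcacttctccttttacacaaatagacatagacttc
In *Scg2* the 2 parts follow each other with 0 bases between them, and in *Unc13a* with 8 bases between them. The window shown for *Scg2* lies wholly within the gene, which spans chr9:88251531-88257208. *Cd53*, a second tetraspanin of leukocytes, read 7.64, 7.95 and 8.22 in hippocampus and 12.09, 12.33 and 12.49 in PBMC, and the values of *Cd37* are given above.

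Many of the brightest genes with an equal level are ones that all cells use. Among the 283, the median size of the log2 difference was 0.15 and the largest 0.33, with 122 differences above 0 and 161 below. Equality here means a difference of under 0.5 log2 (1.41-fold) and not an absence of difference, since 82 of the 283 also had an adjusted p under 0.05 and in 17 the tissues did not overlap (46.4% of all genes did not). *Cfl1* (cofilin), which severs actin filaments, read 11.88, 12.08 and 12.26 in hippocampus and 11.71, 12.002 and 12.33 in PBMC, a log2 difference of 0.06 (95% CI -0.14 to 0.25). *Fth1*, the heavy chain of ferritin, read 11.95, 12.17 and 12.35 in hippocampus and 11.55, 12.21 and 12.69 in PBMC, a difference of -0.06 (95% CI -0.28 to 0.16). The lysosomal protein *Lamp2* differed by 0.05, the sorting nexin *Snx3* by 0.04 and the RNA-binding protein *Hnrnpdl* by -0.02. For *Cfl1* and *Fth1* the 2 tissues overlapped. *Actb*, the beta actin used as a reference gene in many studies, read 12.91, 13.06 and 13.15 in hippocampus and 13.22, 13.34 and 13.48 in PBMC, a difference of -0.30 (95% CI -0.45 to -0.15), so that it was equal by the margin but did not overlap. The other 9 of the 15 brightest equal genes were *Rab7a*, *Actr2*, *Tmbim6*, *Ppia*, *Tubb5*, *Gabarap*, *Hist1h4m*, *Psenen* and *Rab1b*, between -0.31 (*Gabarap*) and 0.28 (*Rab7a*). Of 7 beta tubulins 5 were higher in hippocampus, among them *Tubb4a* (4.77), *Tubb3* (2.94) and *Tubb2b* (2.62), *Tubb5* was equal and 1 fell in no class.

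Most other genes in use as references were not equal. Of 20 reference genes 3 were higher in hippocampus (15%, beside 17.1% of all genes), 6 lower (30%, beside 12%) and 3 equal (beside 1.88% of all genes). Of the 20, 15 lay above the negative control background in both tissues, and 23.3% of all such genes were equal. *Gapdh* differed by 0.60 ± 0.08 and *Hprt1* by 0.86 ± 0.10, both above the margin and below the 2-fold limit, and *B2m* differed by -2.29, *Rplp0* by -1.92, *Rps18* by -2.12 and *Tuba1a* by 1.51. *Ppia*, which encodes cyclophilin A, was equal at 11.24, 11.51 and 11.72 in hippocampus and 11.07, 11.34 and 11.67 in PBMC.

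The proteasome held both kinds of gene. Of 30 core and regulator genes 7 were equal, 1 was higher and none lower (median 0.00, or -0.031 after quantile normalization), beside 1.88% equal over all genes and 23.3% of the genes above the negative control background in both tissues, as 17 of the 30 were. The catalytic subunits of the standard particle were equal (*Psmb6*, -0.18, and *Psmb7*, 0.33) or nearly so (*Psmb5*, 0.46 ± 0.10). Their immune counterparts were lower, *Psmb8* at 5.76, 6.45 and 6.81 in hippocampus and 9.16, 9.62 and 9.84 in PBMC, *Psmb9* by -2.73 ± 0.12 and *Psmb10* by -2.37 ± 0.08. Of 38 initiation factor genes 6 were equal, including *Eif4g2* (0.05) and *Eif4h* (0.01), 2 were higher and 6 lower. *Ldha* was equal, at 10.70, 10.79 and 10.90 in hippocampus and 10.56, 10.86 and 11.09 in PBMC, whereas *Ldhb*, the lactate dehydrogenase subunit that favours pyruvate, differed by 2.37 ± 0.35. On the hippocampus arrays *Ldhb* read 10.79 to 11.08, against 7.24, 6.84 and 7.06 on PBMC arrays 2, 5 and 8 and 9.35 to 9.85 on the other 5 PBMC arrays.

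Promoters of equal genes were rich in CpG pairs, and so were those of other genes above the negative control background in both tissues. The ratio of observed to expected CpG had a median of 0.87 in the 241 windows of equal genes, 0.70 in those of genes higher in hippocampus, 0.67 in those of genes lower and 0.66 in all, and it exceeded 0.6 in 90.0%, 63.1%, 56.9% and 54.9% of them. In the 796 windows of genes above that background in both tissues but not equal the median was 0.86, with 88.4% over 0.6, and in 64 of cytosolic ribosomal protein genes, most of which were lower, it was 0.89, with 93.8% over 0.6. In the 74 leukocyte promoters the median was 0.26, and in 44 promoters of the neuronal and synaptic lists it was 0.71. The window of *Cfl1* is shown with its 28 CpG pairs in capitals.
Cfl1, chr1:212226874-212227173, plus strand: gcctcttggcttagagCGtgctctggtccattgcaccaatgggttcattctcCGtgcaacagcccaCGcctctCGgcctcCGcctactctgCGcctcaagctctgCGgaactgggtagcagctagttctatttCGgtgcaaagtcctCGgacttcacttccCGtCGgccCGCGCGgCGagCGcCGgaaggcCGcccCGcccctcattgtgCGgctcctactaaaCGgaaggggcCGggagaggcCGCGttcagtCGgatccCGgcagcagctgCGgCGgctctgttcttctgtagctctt

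Of the 283 equal genes, 241 were also equal in MONW rats (85.2%) and 263 in MONW-Lep rats (92.9%). In these groups equality was by the one-sided tests alone, without the background limit. In NW rats 5015 of all genes tested passed without that limit, and the matching counts for MONW and MONW-Lep rats were not taken. The largest log2 difference among the 283 was 0.49 in size in MONW rats and 0.51 in MONW-Lep rats. *Cfl1* differed by 0.00 and 0.06 log2 in the 2 groups and *Actb* by -0.30 and -0.30. Equality depended on how the tissues were put on 1 scale. After centring each array on the genes above background in both tissues 167 of the 283 remained equal, after centring on the olfactory receptor genes 184, after quantile normalization 265 and after centring on the negative control features none. The median of all genes moved to 0.20, 0.14, -0.11 and 0.95 with these scalings, so that every small difference given here, including its sign, is relative to the scale of the deposited values.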

How the data were processed

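RNA of hippocampus and PBMC was hybridised to Rat Clariom S arrays. The values are log2 signals per probe cluster, which the authors deposited after RMA (background correction, quantile normalization and summary of probes), with R 4.0.4 and limma listed as tools in the notes of the submitters. No source used here says whether both tissues were normalized in 1 run. Of 24871 clusters, 1683 are controls and 8139 have no gene symbol in the platform annotation, which left 15049, all matched to RefSeq (GRCr8) by gene ID.

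The tissues were compared with limma 3.58.1 (R 4.3.3) with the array number as a block, and p-values were adjusted by Benjamini and Hochberg over all 15049 clusters. A gene was called at an adjusted p under 0.05 and a log2 difference of 1 or more in size. It was called equal where 2 one-sided tests with a margin of 0.5 log2 gave an adjusted p under 0.05 and where it exceeded the 95th percentile of the negative control features on at least 6 of 8 arrays of each tissue. The tests were tried on simulated data with the same spread in both tissues, no shift of scale between them and no background limit. That trial therefore cannot show how a difference in spread or scale affects the calls. Array numbers come from the sample titles, and no source used here states that a number is 1 rat in both tissues. The p-values measure the spread between these arrays, whose number limits the precision.

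The named genes are the markers, the 15 genes with the largest differences in each direction, the 15 brightest equal genes, members of paralog sets, up to 6 members with the smallest p in each list or family and those that oppose its majority, and the 10 most variable detected genes of each tissue. *Aif1*, *Sall1*, *Ctss*, *Clu*, *Nrgn*, *Gapdh*, *Hprt1*, *Psmb5*, *Psmb6*, *Psmb7*, *Eif4g2*, *Eif4h*, *Septin11*, *Unc13a*, *Sez6l2*, *Disp2*, *Ptprn2*, *Cntnap5b*, *Ccdc77* and *RT1-Bb* were added after their values had been seen. The members and the lists were chosen with earlier results of these data known. Lists are described by counts and medians, and list genes without a matching symbol were not analysed here. Alternatives were other scalings, limits, margins and backgrounds, a fit without the block, and leaving out arrays.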

Additional observations from a re-analysis of the deposited data

Results flagged for a closer look

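For 224 named genes and both tissues, the lowest and the highest array were set against the other 7, and in 23 of 448 sets of 8 arrays the gap to the nearest array, as a share of the whole range, was over Dixon's 95% critical value. Chance flags about 1 in 20 such sets. Of the 23, 11 were on PBMC array 6. There *Clec1b* read 7.38 (nearest other array 10.79), *Pf4* 9.20 (11.56), *F13a1* 6.72 (9.26), *Thbs1* 7.12 (9.47), *Slc40a1* 6.40 (9.07), *Pla2g2a* 9.28 (11.41), *Npy* 9.88 (11.26), *Nrgn* 9.50 (10.79), *Clu* 8.55 (10.29) and the RNA sensor *Tlr8* 8.34 (9.51), all as the lowest PBMC array, while *Pvalb* read 6.71 (6.32) as the highest. *Clec1b*, *Pf4*, *F13a1* and *Thbs1* are platelet genes. The 224 genes include the 10 detected genes that varied most between PBMC arrays, which were all lowest on PBMC array 6. *Nrgn* and *Clu* were added after their values had been seen. The count of flags on PBMC array 6 therefore follows in part from the choice of genes. The values of the whole platelet list on this array, and of other lists that were low there, are given above.

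On the other PBMC arrays, *Ms4a4c* was highest on array 5 at 11.06 (10.83), *Gzmk* lowest on array 4 at 8.86 (9.55) and *Stx1a* lowest on array 3 at 7.95 (8.26). On the hippocampus arrays, *RT1-Da* was highest on array 5 at 7.91 (7.46), *Mcm3* highest on array 5 at 5.75 (5.01), under the olfactory level, and *Itpr2* lowest on array 5 at 7.09 (7.33). *Ctss* was highest on array 3 at 10.06 (9.76), *Spib* lowest on array 3 at 4.38 (4.96), *Psmb8* lowest on array 4 at 5.76 (6.38), *Gimap1* lowest on array 2 at 5.96 (6.26), *Or12j4* lowest on array 2 at 3.97 (4.26) and *Cntnap5b* lowest on array 1 at 6.38 (6.69).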

How the results depend on the processing

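Counts depended on the scale of the tissues and on the limits. Centring each array on the negative control features, which read about 1 log2 higher on the PBMC arrays, gave 6978 genes higher in hippocampus, 697 lower and 0 equal (228 at an unadjusted p under 0.05). It also put the medians of the lists of neutrophil and basophil genes (0.50), spliceosome (0.32) and DNA replication (0.41) and of the mitochondrial ribosomal genes (0.91) above 0, and the last were above 0 after centring on the genes above background in both tissues (0.15) and on the olfactory receptor genes (0.10) too. The medians of the interleukins and of the chemokine ligands were above 0 after centring on the genes above background in both tissues (0.12 and 0.065), on the olfactory receptor genes (0.059 and 0.0073) and on the negative control features (0.88 and 0.82). Quantile normalization put the medians of microglia (-0.067) and proteasome genes (-0.031) below 0. Without a fold limit 4952 genes were higher and 5586 lower, and with a limit of 2 log2 1341 and 711. Testing only genes above background in at least 1 tissue gave 1478 and 750, and testing all non-control clusters gave 2857 lower. Equal genes numbered 0 with a margin of 0.3 log2 (141 at an unadjusted p under 0.05), 751 with 1 log2, 2449 with the olfactory level as background and 180 with all 8 arrays above background. Leaving out each pair of arrays gave 2562 to 2592 genes higher, 1771 to 1834 lower and 254 to 273 equal, and all 195 called genes among the named ones kept their call. Without array numbers 1 and 2 there were 2588, 1800 and 224, and centring on the olfactory receptor genes gave 3057, 1421 and 306 (both alternatives were chosen after seeing the data). Of the 224 named genes 202 kept their class, or shifted by less than the SD of the pairs if in no class, under every other scaling, fit and set of arrays. Centring on the negative control features was left out of that count, and under it 180 did so and 15 called genes lost their call.

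The fit without the block of array numbers gave 2574 genes higher, 1801 lower and 294 equal, and changed no call of a named gene. Over all genes, deviations from the tissue mean correlated between same-numbered arrays at -0.09 to 0.10, and 2 of 8 hippocampus arrays matched their own number best. The numbers were therefore not seen to pair the arrays over all genes. *Ccdc77* (below) varied with the number in both tissues, but it was chosen after its values had been seen, so it cannot decide the pairing.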

Other observations

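Further families had members on both sides. Of 14 adhesion G protein-coupled receptors 9 were higher in hippocampus and 3 lower. The latrophilin *Adgrl3* read 9.09, 9.25 and 9.46 in hippocampus and 4.96, 5.14 and 5.37 in PBMC, and the synaptic receptor *Adgrb3* was at least 18.7-fold higher. The 3 lower members were those of the myeloid group, *Adgre5* (-4.04 ± 0.08), *Adgre4* (at least 8.31-fold) and *Adgre1* (at least 2.78-fold). Of 19 RGS proteins, which shorten G protein signals, 6 were higher and 5 lower, among them *Rgs7* (at least 13.4-fold higher) and *Rgs1* (at least 48.2-fold lower). Of 16 S100 calcium-binding proteins 3 were higher and 6 lower (18.75% and 37.5%, beside 17.1% and 12% of all genes). *S100b*, a protein of astrocytes, read 10.04, 10.31 and 10.62 in hippocampus and 4.84, 5.52 and 5.94 in PBMC, and *S100a4* read 5.30, 5.55 and 5.99 in hippocampus and 8.42, 9.39 and 9.70 in PBMC. Of 35 serpins 5 were higher and 5 lower (14.3% each, beside 17.1% and 12% of all genes), the higher ones including neuroserpin (*Serpini1*, 3.71 ± 0.13) and the lower ones *Serpinb6b* (-4.21) and *Serpinb9* (-2.25).

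Of 24 solute carriers for amino acids and transmitters (SLC1 and SLC6) 12 were higher in hippocampus and 2 lower. The glial glutamate transporter *Slc1a3* read 10.26, 10.43 and 10.62 in hippocampus and 5.02, 5.38 and 5.80 in PBMC. The 2 lower genes were the glutamine transporter *Slc1a5* (-1.69 ± 0.11) and the serotonin transporter *Slc6a4* (-1.57 ± 0.19), which platelets use to take up serotonin. *Slc6a4* read 6.09, 6.41 and 6.46 in hippocampus and 6.93, 7.72 and 8.98 in PBMC.

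Covariation between same-numbered arrays was screened in 1263 genes (SD limit 0.25), of which 3 had r over 0.9 and 2 had r under -0.9. How many would pass these limits without any pairing was not tested. 2 genes, chosen after their values had been seen, fell into separate levels by array number. *Ccdc77* read 5.85, 5.73 and 5.85 on hippocampus arrays 3, 5 and 6 and 6.99 to 7.44 on the other 5, and on the PBMC arrays of the same numbers it read 6.83, 6.89 and 6.12, against 7.36 to 8.18 on the others. *RT1-Bb*, an MHC class II beta chain, read 5.59 to 6.29 on the hippocampus arrays, against 9.26, 9.14 and 9.05 on PBMC arrays 3, 5 and 6 and 7.15 to 7.53 on the other 5.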
